A study of Vitis vinifera with 6 samples.

Results

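The 32 gene models described here hold the most abundant transcripts of the seed content of young table grapes. They were chosen by level alone: each had a mean of at least 800 RPKM over 6 libraries, out of 29536 gene models with readable values. In all, 35 gene models reached that mean, and 3 of them were set aside by name in the rule. RPKM is a read count divided by the length of the gene model and by the size of the library, so levels can be compared between genes. Because the levels chose the members, the height of a level is a description and not a finding. The rule takes no account of class, but a member that reached the mean through 1 class alone had to differ between the classes to some degree.

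Grapevine seedlessness of the stenospermocarpic kind follows fertilization: the embryo and endosperm begin to grow and then stop, and a small soft trace is left in the berry where a hard seed would form. A grape seed is built of seed coat, nucellus, endosperm and embryo. In any tissue a few transcripts take a large part of the messenger RNA. As RPKM is a relative measure, a change in the most abundant transcripts leaves more or less of the sequencing to every other gene.

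All plants were F1 hybrids of Red Globe and Crimson Seedless. The seedless class was 3 hybrids of the type labelled sdi+, which gave seed traces, and the seeded class was 3 hybrids of the type labelled sdi-, which gave seeds. Seeded samples carry titles that read Seededless, but other label fields, among them phenotype and tissue, mark them as seeded, and every direction given here rests on those labels. Berries of 10 to 12 mm were collected, at 4 weeks after anthesis. Each library came from a different hybrid and pooled the seed content of 12 to 50 fruits, which means that plant-to-plant differences and technical error both enter the spread of a class. The deposited values pair identifiers with no gene names, and no name could be attached to them here, so genes are called by identifier, no role is given for any, and the labelled tissue could not be checked against markers.

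Reads recovered from the deposited values came to between 6305924 and 9381487 per library. Every member could be turned back into whole reads, with 729 to 40442 reads per member and library, so counting error was at most 3.7% of a value. Across all genes, seedless library 1 stood apart: its Pearson correlations on the log2 scale were 0.847 and 0.862 with the other seedless libraries, which correlated with each other at 0.944. Its correlations with the seeded libraries were 0.728 to 0.743. Results that it moves most are given with and without it.

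The members together took a smaller share of the transcript pool in seedless than in seeded libraries. They held 5.75%, 6.9% and 7.38% of the summed RPKM of seedless libraries 1 to 3, against 7.52%, 7.83% and 8.36% in seeded libraries 1 to 3. No seedless library reached the lowest seeded one, although seedless library 3 came within a short distance of seeded library 1. The mean share was 6.67% ± 0.836 in the seedless class and 7.91% ± 0.426 in the seeded class (SD, n = 3 each), a difference of -1.23 percentage points. An exact permutation test over libraries, two-sided, gave p = 0.1, which is the smallest p that this test allows with 3 against 3. Without seedless library 1 the difference was -0.769 percentage points. The share sums the levels that the rule selected on, and 9 of the 32 members reached 800 RPKM in 1 class only. The 23 members whose mean reached it in both classes held 4.54%, 5.77% and 6.06% of the seedless libraries, against 6.05%, 6.43% and 6.75% of the seeded libraries. Seedless library 3 then just exceeded seeded library 1, and the difference of -0.953 percentage points gave an exact permutation p of 0.2.

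**Figure D1:**
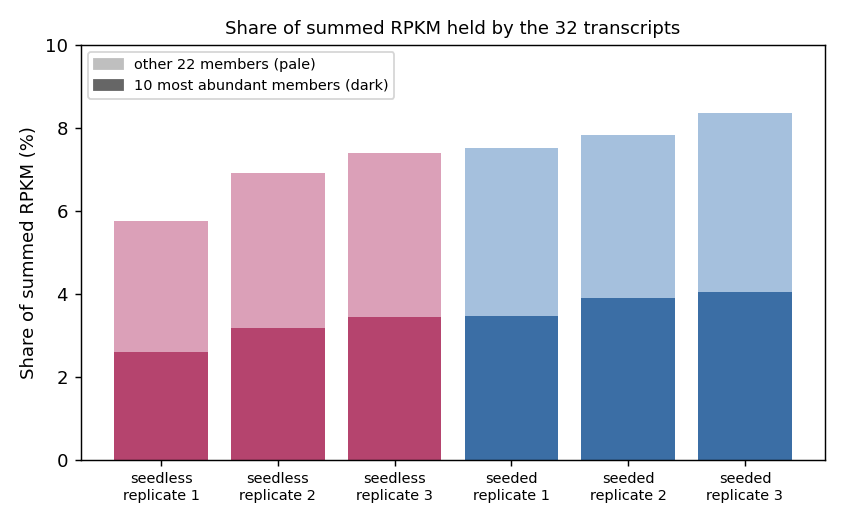
Stacked bars give the share of summed RPKM, in percent, held by the 32 members in each of the 6 libraries, the dark part being the 10 most abundant members and the pale part the other 22. The whole bars lie between 5.75% and 7.38% in the seedless libraries and between 7.52% and 8.36% in the seeded libraries.

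The 10 members with the highest means made up a little under 50% of that share. They held 2.59%, 3.17% and 3.43% in the seedless libraries and 3.47%, 3.89% and 4.04% in the seeded libraries. The other 22 held 3.16%, 3.73% and 3.95% in the seedless libraries and 4.05%, 3.94% and 4.32% in the seeded libraries, so here the classes overlapped. Exact permutation tests, two-sided, gave p = 0.1 for the 10 and p = 0.2 for the 22. Counted in recovered reads in place of RPKM, which gives long gene models more weight, the whole list held 5.2%, 6.21% and 6.51% of seedless libraries 1 to 3 and 6.67%, 6.96% and 7.43% of seeded libraries 1 to 3.

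Summed over the members, the class means differed by -10478 RPKM. Members with a lower seedless mean contributed -12487 RPKM and members with a higher seedless mean 2009 RPKM. The 5 largest negative differences came to -5867 RPKM, which is 56% of the net and 47% of the negative sum, and they belonged to VIT_02s0154g00310, VIT_12s0059g00590, VIT_14s0068g00920, VIT_19s0027g01810 and VIT_14s0108g00810. Without seedless library 1 the net was -8819 RPKM and the 5 largest negative differences came to -5005 RPKM. VIT_02s0154g00310 then differed by -1432 RPKM, and VIT_10s0003g02890, at -648 RPKM, took the place of VIT_19s0027g01810 among the 5. Of all these, VIT_14s0068g00920 alone passed the test described further on.

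At the 50% mark the libraries were also less concentrated in the seedless class. To reach 50% of the summed RPKM took 1417, 1610 and 1496 genes in the seedless libraries, against 1381, 1251 and 1228 genes in the seeded libraries. To reach 25% took 281, 345 and 311 genes in the seedless libraries and 291, 262 and 243 in the seeded libraries, where the classes overlapped. In single libraries, 21, 24 and 28 members stood at 800 RPKM or more in the seedless class, against 30, 30 and 31 in the seeded class. Members were chosen by a mean of 800 RPKM, 7 of them through the seeded class alone and 2 through the seedless class alone. Of all genes, 51, 31 and 36 reached that level in the seedless libraries and 39, 47 and 56 in the seeded libraries, with overlap. All 6 libraries were at 800 RPKM or more for 18 of the 32 members.

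**Figure D2:**
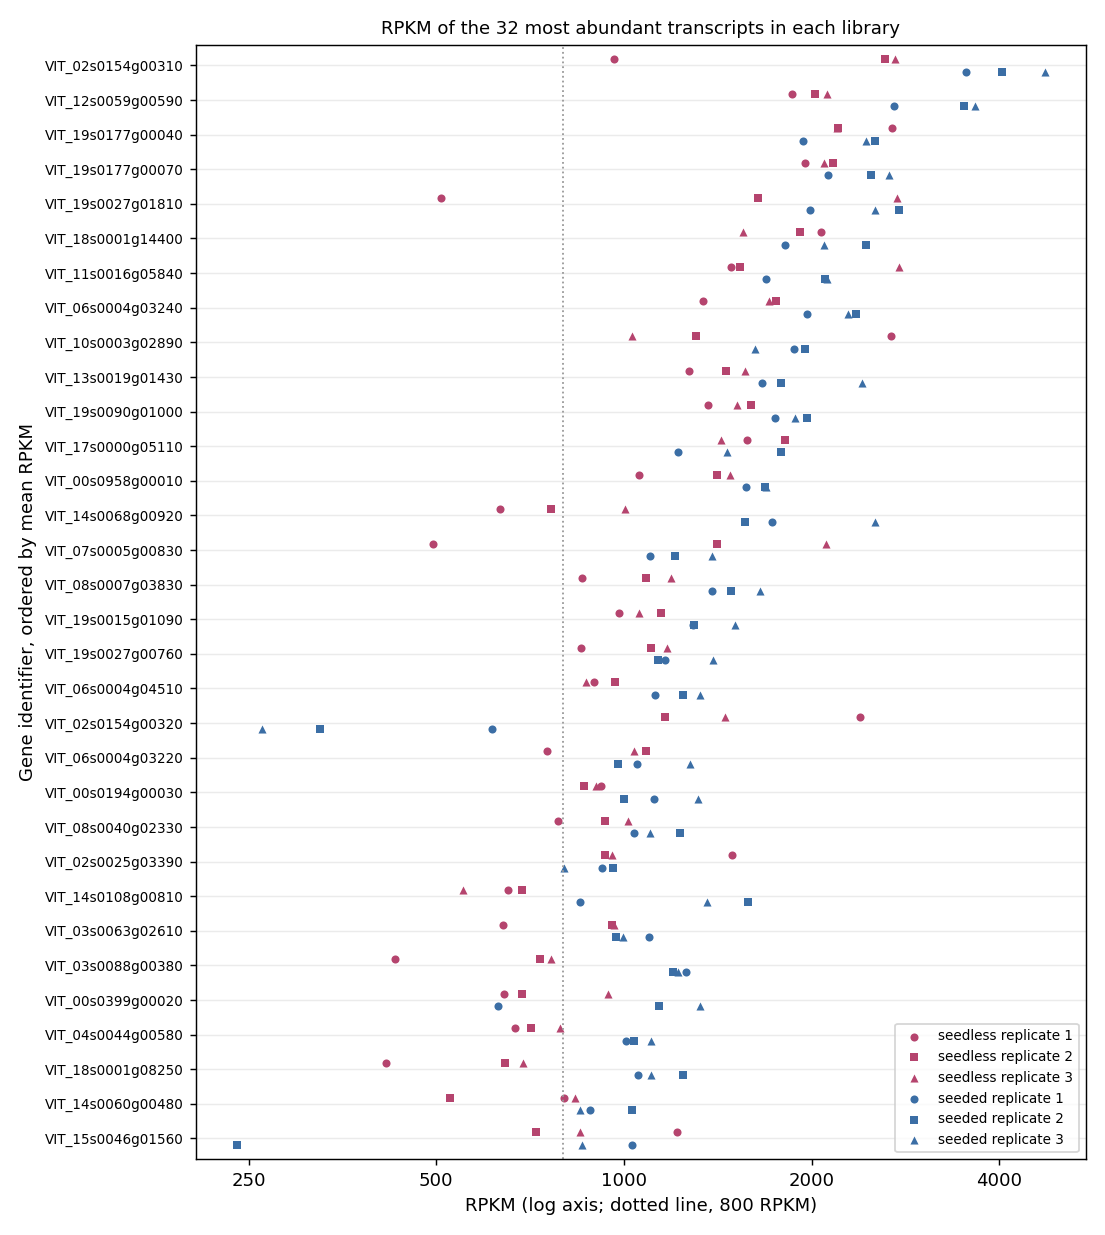
Each row is 1 of the 32 members, ordered by its mean, and each point is the RPKM of 1 library on a log axis, with the seedless class above the seeded class and the dotted line at 800 RPKM. In VIT_02s0154g00310, the top row, seedless library 1 lies at 965.1 RPKM and the seeded libraries at 3533 RPKM or more, while in VIT_02s0154g00320 the seeded libraries lie at 615 RPKM or less.

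The most abundant transcript by its mean, VIT_02s0154g00310, stood at 965.1, 2621 and 2721 RPKM in seedless libraries 1 to 3, against 3533, 4035 and 4739 RPKM in seeded libraries 1 to 3. It was the highest gene of all in every seeded library and in seedless library 2, at rank 3 in seedless library 3 and at rank 34 in seedless library 1. Every seedless value lay below every seeded value, but the seedless class was wide, at 2102 ± 986 RPKM against 4103 ± 606 RPKM in the seeded class (SD, n = 3 each). On the log2(RPKM + 1) scale, on which all fold changes are given and which takes seedless over seeded, its log2 fold change was -1.10 with an SE of 0.47, which missed the threshold (limma adjusted p = 0.169). Leaving out seedless library 1 gave a value of -0.61.

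VIT_12s0059g00590, the next by mean level, had 1858, 2025 and 2115 RPKM in the seedless libraries and 2708, 3513 and 3659 RPKM in the seeded libraries. All seedless values lay below all seeded values, and the seedless values lay close together. Its log2 fold change of -0.71 had an SE of 0.28 and did not pass over all genes (limma adjusted p = 0.144).

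VIT_19s0177g00040 and VIT_19s0177g00070 were the only members, and the only genes, among the 10 highest of all 6 libraries. VIT_19s0177g00040 had 2689, 2209 and 2197 RPKM in the seedless libraries and 1935, 2527 and 2445 RPKM in the seeded libraries. VIT_19s0177g00070 had 1953, 2169 and 2096 RPKM in the seedless libraries and 2125, 2492 and 2662 RPKM in the seeded libraries. In both the classes overlapped. Their log2 fold changes were 0.04 and -0.22, with 95% intervals of -0.62 to 0.71 and -0.85 to 0.40, so a change of 2-fold in either direction lies outside both intervals.

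VIT_19s0027g01810 differed more among seedless plants than between the classes. It stood at 508.3, 1641 and 2738 RPKM in the seedless libraries, against 1990, 2766 and 2528 RPKM in the seeded libraries. Seedless library 3 lay above seeded libraries 1 and 3, and seedless library 1 lay far below all others. Its log2 fold change of -0.87 had an SE of 0.61 (limma adjusted p = 0.373), and was -0.18 without seedless library 1.

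Among the rest of the 10 highest, VIT_18s0001g14400 had 2073, 1915 and 1551 RPKM in the seedless libraries and 1813, 2444 and 2092 RPKM in the seeded libraries, with overlap. VIT_11s0016g05840 had 1483, 1534 and 2767 RPKM in the seedless libraries and 1692, 2104 and 2119 RPKM in the seeded libraries. The value of seedless library 3 was the highest of any gene in that library and lay above all seeded values. The other seedless values lay below all of them.

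VIT_06s0004g03240 and VIT_13s0019g01430 were lower in every seedless library than in any seeded one without passing. VIT_06s0004g03240 had 1338, 1755 and 1709 RPKM in the seedless libraries and 1966, 2353 and 2287 RPKM in the seeded libraries. VIT_13s0019g01430 had 1270, 1458 and 1566 RPKM in the seedless libraries and 1667, 1786 and 2414 RPKM in the seeded libraries. By limma their log2 fold changes were -0.47 and -0.44, at adjusted p of 0.267 and 0.307. VIT_10s0003g02890 had 2684, 1307 and 1029 RPKM in the seedless libraries and 1876, 1952 and 1622 RPKM in the seeded libraries. Here seedless library 1 was the highest of all and the other seedless libraries were below every seeded one. The log2 fold change was -0.24 with all libraries and -0.64 without seedless library 1, and passed in neither case (limma adjusted p of 0.716 and 0.125).

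The comparison of the classes asks which of these levels differ between seed traces and seeds. It was fitted with limma on all 18749 genes that reached 1 RPKM in 3 or more libraries, and all 32 members entered the fit. With Benjamini-Hochberg adjusted p under 0.05, 2 of the 32 members (6.25%) passed, against 12.3% of all genes tested. Of the members 1 rose in the seedless class, against 7.18% of all genes, and 1 fell, against 5.1% of all genes. Both changed at least 2-fold, and 8.95% of all genes both passed and changed at least 2-fold. With 2 calls, a share below the background is not a result about the members. Because whole seed contents were sequenced, fewer cells of a type and less RNA per cell cannot be told apart in any of these differences.

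The member that rose was VIT_02s0154g00320. It stood at 2395, 1165 and 1451 RPKM in seedless libraries 1 to 3, against 615, 325.6 and 263 RPKM in seeded libraries 1 to 3. Every seedless value lay above every seeded value, and the lowest seedless value was well above the highest seeded one. Means were 1671 ± 644 RPKM in the seedless class and 401.2 ± 188 RPKM in the seeded class (SD, n = 3 each). The gene thus reached the list through the seedless class alone. The rule itself favoured a rise in it, so its passing is no result about the list. The log2 fold change was 2.09 with an SE of 0.41 (limma adjusted p = 0.0265). It stood at ranks 4, 15 and 13 in the seedless libraries and at ranks 57, 247 and 317 in the seeded libraries. The call held without seedless library 1, where limma gave a log2 fold change of 1.79 and an adjusted p of 0.0338, and was lost without seedless library 3, seeded library 2 or seeded library 3 (limma adjusted p of 0.0663, 0.109 and 0.0986). Over all 17 alternatives the adjusted p ran between 0.0164 and 0.109.

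The member that fell was VIT_14s0068g00920. It stood at 633, 763.7 and 1003 RPKM in the seedless libraries, against 1729, 1566 and 2524 RPKM in the seeded libraries. The classes did not overlap. The mean of the seedless class, 799.8 RPKM, just missed 800 RPKM, and that of the seeded class was 1940 RPKM. The gene thus reached the list through the seeded class alone. The rule itself favoured a fall in it, so its passing is no result about the list. The log2 fold change was -1.27 with an SE of 0.30 (limma adjusted p = 0.042). The fold change stayed between -1.45 and -1.07 when any 1 library was left out, but the call was then lost each time, with limma adjusted p between 0.0585 and 0.135. It was lost in 10 of 17 alternatives in all. With 1 library left out, calls over all genes came to between 2.24% and 12.4% of the genes tested, against 12.3% with all libraries. The 12.4% was without seedless library 1, where the share of calls over all genes did not fall.

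**Figure D3:**
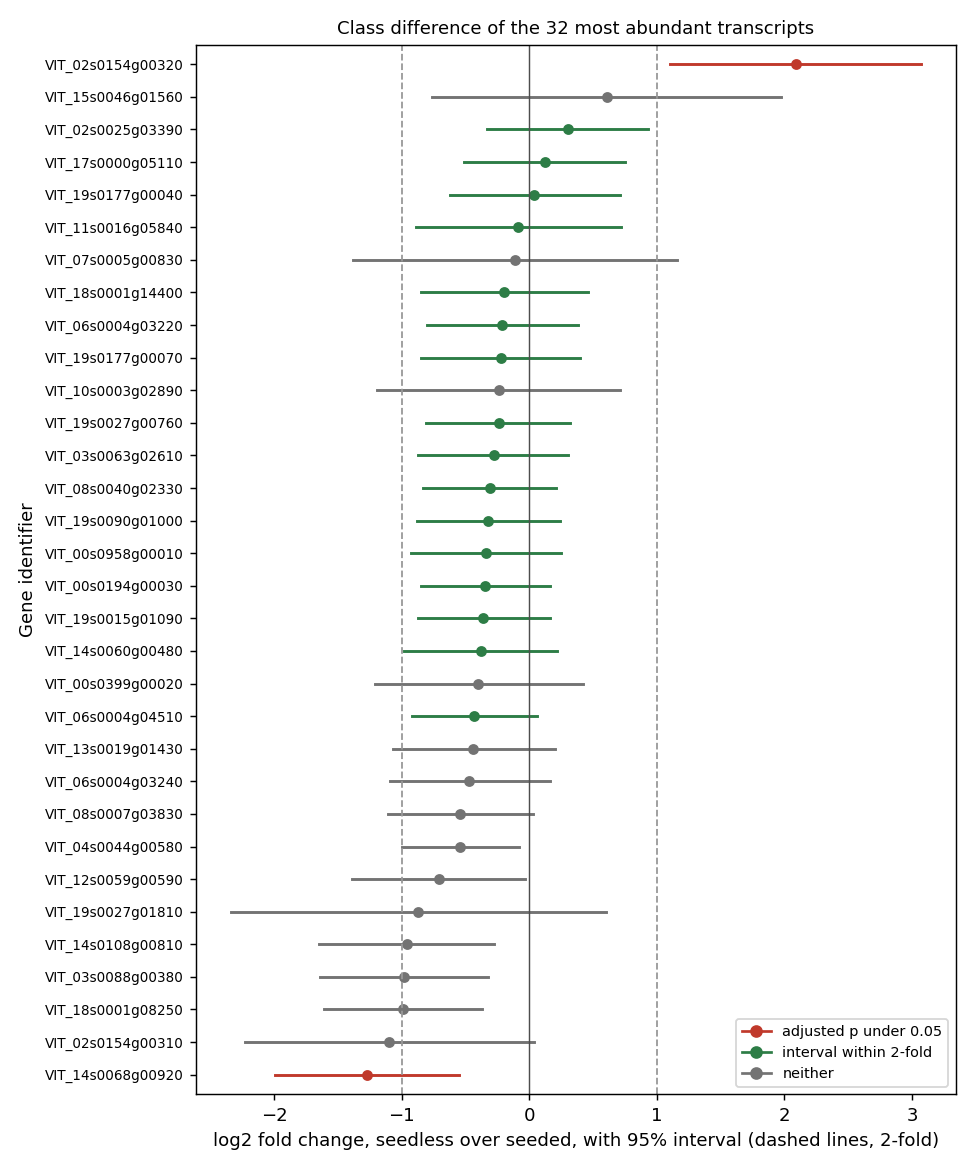
Points are log2 fold changes, seedless over seeded, with 95% intervals from limma, for the 32 members in order of fold change, with dashed lines at 2-fold. The 2 members that passed lie at 2.09 and -1.27, 16 have intervals wholly between the dashed lines, and 14 have neither.

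That a member missed the threshold does not show that its level held. The level was taken to hold where the 95% interval of the log2 fold change, unadjusted, lay wholly between -1 and 1. This was so for 16 of the 32 members (50%), against 50.8% of all genes tested, which is a like share. The 5 with the narrowest intervals were VIT_06s0004g04510, VIT_00s0194g00030, VIT_19s0015g01090, VIT_08s0040g02330 and VIT_19s0090g01000, whose intervals reached 0.49 to 0.56 to either side of the estimate.

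To hold within 2-fold is not to be equal. VIT_06s0004g04510 had 896.6, 966.2 and 869 RPKM in the seedless libraries and 1121, 1246 and 1325 RPKM in the seeded libraries, with no overlap. Its log2 fold change was -0.43, with a 95% interval of -0.92 to 0.06. VIT_00s0194g00030 had 918.2, 863.3 and 900.7 RPKM in the seedless libraries and 1117, 1002 and 1316 RPKM in the seeded libraries. The seedless values of that gene spanned 1.06-fold, the narrowest range of any member in the seedless class, and all lay below the seeded values.

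VIT_19s0015g01090 had 982.8, 1148 and 1057 RPKM in the seedless libraries and 1290, 1297 and 1505 RPKM in the seeded libraries. VIT_08s0040g02330 had 783.1, 932 and 1015 RPKM in the seedless libraries and 1038, 1231 and 1101 RPKM in the seeded libraries. VIT_19s0090g01000 had 1366, 1602 and 1521 RPKM in the seedless libraries and 1749, 1964 and 1881 RPKM in the seeded libraries. In each of these 3 the classes were apart, by a margin that was small in VIT_08s0040g02330. Log2 fold changes were -0.36, -0.31 and -0.32, and limma adjusted p 0.298, 0.369 and 0.388. Of the 16 members that held, 8 had every seedless value below every seeded value, against 20.5% of all genes tested, held or not. VIT_00s0958g00010, which also held, has a gene model of 96 bp, shorter than the mean sequenced fragment of 302 bp, so its level per length is uncertain. It had 1059, 1410 and 1478 RPKM in the seedless libraries and 1568, 1686 and 1689 RPKM in the seeded libraries.

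The number of members that held changed with the libraries in the fit. Without seedless library 1 it was 20, against 59.1% of all genes tested, and 15 of the 16 were among them. Without seedless library 2 or 3 it was 5 and 4, against 44.6% and 45.3% of all genes. Leaving out seeded library 1, 2 or 3 gave 7, 3 and 7 members, against 41.7%, 44.3% and 41.7% of all genes.

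Over the whole list the differences ran mostly one way. The log2 fold change was below 0 in 27 of the 32 members, against 52.6% of all genes tested, with a median of -0.34 against -0.035 for all genes. Every seedless value was below every seeded value in 18 members (56.2%), against 20.5% of all genes, and above in 1 member, against 19.0% of all genes. The share of genes lower without overlap varied with level, at 13.8% for means under 10 RPKM and 24.1% between 10 and 100 RPKM. It was 35.7% between 100 and 400 RPKM and 32% between 400 and 800 RPKM. Without seedless library 1 the counts were 26 members below 0 and 19 members lower without overlap, and 25.8% of all genes were lower without overlap. Quantile normalization, which gives each library the same distribution of values, left 23 members below 0 and a median of -0.13 against -0.108 for all genes. Scaling the libraries to equal medians shifted the median of all genes to -0.105 and that of the members to -0.41, with 28 members below 0.

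The class by which a member reached the list bears on these counts. Entry through the seeded class alone favours a lower seedless level. The counts of members below 0 and of members lower without overlap are thus partly set by the rule, and lend a shift of the list no support. The mean of each class was at least 800 RPKM in 23 members, the mean of the seeded class alone in 7 and that of the seedless class alone in 2. Both members that passed the test were among those that reached it through 1 class. Had the rule been applied within a class, 34 genes would have reached 800 RPKM in the seedless class and 43 in the seeded class, with 9 and 13 of them outside the list. The share of genes with a log2 fold change below 0 varied with level. It was 44% for means under 10 RPKM, 57.5% between 10 and 100 RPKM, 69.4% between 100 and 400 RPKM and 66% between 400 and 800 RPKM.

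Of the 14 members that neither passed nor held, 9 were lower in every seedless library than in every seeded library. Over all genes tested, whether or not they passed or held, the share was 20.5%. VIT_18s0001g08250 came nearest to the threshold, with 415.3, 643.7 and 688.6 RPKM in the seedless libraries and 1053, 1243 and 1107 RPKM in the seeded libraries. Its highest seedless value was well below its lowest seeded value. The log2 fold change was -0.99 with an SE of 0.26 (limma adjusted p = 0.0537), and it passed in 5 of 17 alternatives. VIT_03s0088g00380 had 428.8, 732.4 and 763.2 RPKM in the seedless libraries and 1260, 1197 and 1220 RPKM in the seeded libraries. The seeded values spanned 1.05-fold, the narrowest range of any member in the seeded class, while seedless library 1 was low. The log2 fold change was -0.98 (limma adjusted p = 0.066). VIT_14s0108g00810 had 651.1, 685.7 and 551.4 RPKM in the seedless libraries and 851.9, 1579 and 1360 RPKM in the seeded libraries. Here the seedless values lay close together and seeded library 1 was the low one of its class. By limma its log2 fold change was -0.96, at an adjusted p of 0.0741. These 3 genes were chosen for mention after their values were seen. All 3 reached the list through the seeded class alone, so the rule itself favoured their lower seedless levels.

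Identifiers of this gene set carry a chromosome, a scaffold and a gene number, and 3 pairs of members share a scaffold with numbers no more than 100 apart. Whether the members of a pair share reads through similar sequence was not tested, so a split within a pair is less certain than their sum. The first pair held both the most abundant member and the one that rose, VIT_02s0154g00310 and VIT_02s0154g00320, next to each other on chromosome 2 with gene models of 760 and 755 bp. VIT_02s0154g00310 made up 28.7%, 69.2% and 65.2% of the pair's RPKM in seedless libraries 1 to 3, against 85.2%, 92.5% and 94.7% in seeded libraries 1 to 3. The pair's sum was 3360, 3786 and 4172 RPKM in the seedless libraries and 4148, 4361 and 5002 RPKM in the seeded libraries. The shares of the classes were far apart, whereas the sums overlapped. Exact permutation tests, two-sided, gave p = 0.1 for the share, the smallest possible, and p = 0.2 for the sum (0.1 and 0.3 adjusted over the 3 pairs). VIT_02s0154g00320 reached the list through the seedless class alone, at means of 1671 RPKM there and 401.2 RPKM in the seeded class. The test of the share thus draws on a difference that put the gene on the list, and lends it no support. The gene models flanking the pair, VIT_02s0154g00300 and VIT_02s0154g00330, stood at 0.152 to 3.33 RPKM and 25.1 to 36.9 RPKM over the 6 libraries.

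**Figure D4:**
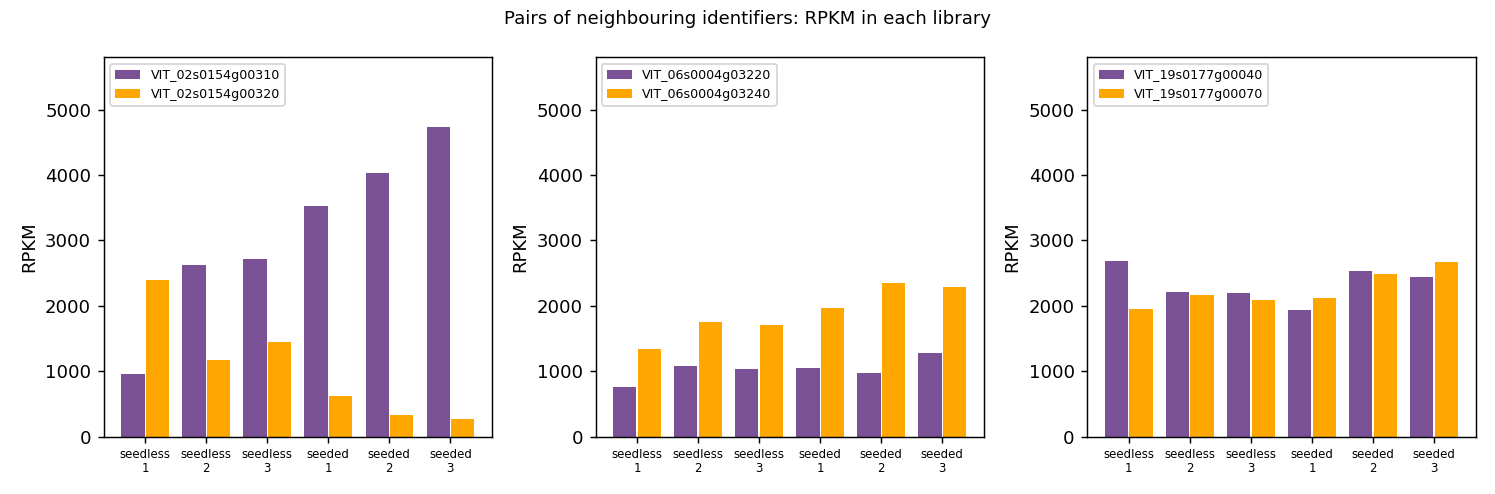
Bars give the RPKM of both members of each of the 3 neighbouring pairs in every library, seedless to the left of seeded, on 1 common axis that starts at 0. In the left panel VIT_02s0154g00320 exceeds its neighbour in seedless library 1 and is at 263 RPKM in seeded library 3, while in the other panels the split varies between 29.4% and 57.9% for the first member.

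The pair on chromosome 19, VIT_19s0177g00040 and VIT_19s0177g00070, was split nearly evenly. The first made up 57.9%, 50.5% and 51.2% in the seedless libraries and 47.7%, 50.3% and 47.9% in the seeded libraries. The classes of the split did not overlap, but seedless library 2 and seeded library 2 lay within a fraction of a percentage point of each other. In the third pair, VIT_06s0004g03220 and VIT_06s0004g03240 on chromosome 6, the first made up 36%, 38.2% and 37.8% in the seedless libraries and 34.8%, 29.4% and 35.8% in the seeded libraries. VIT_06s0004g03220 itself had 752, 1086 and 1038 RPKM in the seedless libraries and 1048, 979.7 and 1275 RPKM in the seeded libraries, with overlap. The gene model numbered between them, VIT_06s0004g03230, stood at only 4.39 to 7.39 RPKM. Exact permutation tests of the split, two-sided, gave p = 0.1 for each of these 2 pairs, the smallest possible.

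The members were spread over 15 chromosomes, with 3 unplaced. Chromosome 19 held 6 of the 32 (18.8%), against 4.28% of the genes tested, and chromosomes 2, 6 and 14 held 3 each. Gene models of members had a median length of 1461 bp, close to the 1369 bp of the genes tested, with a range of 96 to 4070 bp.

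Within a class, most members varied little from plant to plant. The ratio of the highest to the lowest library had a median of 1.39 in the seedless class and 1.25 in the seeded class. It reached 2 or more in 5 members in the seedless class and in 3 members in the seeded class. VIT_07s0005g00830 was the most variable seedless member after VIT_19s0027g01810. It had 494.8, 1408 and 2109 RPKM in the seedless libraries and 1102, 1206 and 1387 RPKM in the seeded libraries. Its seeded values all lay inside the seedless range, and its log2 fold change was -0.11 with all libraries but 0.49 without seedless library 1. VIT_15s0046g01560 was the most variable in the seeded class, with 1219, 723.4 and 849.5 RPKM in the seedless libraries and 1032, 239.2 and 855.7 RPKM in the seeded libraries. Seeded library 2 was far below the others there, and the log2 fold change of 0.61 turned to -0.05 without it.

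**Figure D5:**
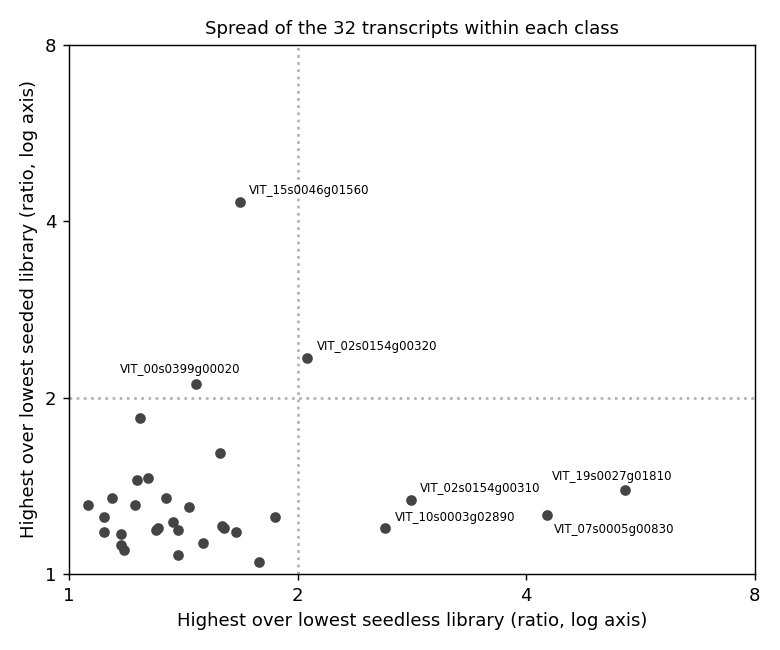
Each point is 1 of the 32 members, with the ratio of its highest to its lowest seedless library on the horizontal axis and the same ratio for the seeded libraries on the vertical axis, both log axes, and dotted lines at 2. Most points lie in the lower left, VIT_19s0027g01810 reaches 5.39 in the seedless class and VIT_15s0046g01560 reaches 4.32 in the seeded class.

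Seedless library 1 had the lowest value of its class in 21 of the 32 members and the highest in 7, and seedless library 3 had the highest in 17. The order of the members was much the same in all seeded plants. Spearman correlations across the 32 members were 0.87 to 0.91 among the seeded libraries and 0.69 to 0.80 between them and seedless libraries 2 and 3. They were 0.30 to 0.38 between seedless library 1 and the seeded libraries. These correlations are across genes chosen for a high mean and describe these libraries only. Of the 32 highest genes of each library, 15, 25 and 25 were members in seedless libraries 1 to 3 and 27, 26 and 24 in seeded libraries 1 to 3.

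At the edge of the rule, the last members inside were VIT_18s0001g08250, VIT_14s0060g00480 and VIT_15s0046g01560, with means of 858.4, 820.7 and 819.8 RPKM. The first genes outside were VIT_13s0019g03920, VIT_08s0007g02350 and VIT_14s0060g02730, with means of 792, 785.4 and 779.3 RPKM. VIT_14s0060g00480 had 800.3, 525.7 and 834.2 RPKM in the seedless libraries and 882.8, 1030 and 851.2 RPKM in the seeded libraries. VIT_14s0060g02730 was nearly unlisted in seedless library 1 and high elsewhere: it had 2.54, 601.8 and 1079 RPKM in the seedless libraries and 729.4, 1131 and 1132 RPKM in the seeded libraries.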

How the data were processed

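Messenger RNA of 6 seed contents was sequenced with the TruSeq stranded mRNA kit and 15 PCR cycles, per the labels' protocols. The authors deposited 1 table of RPKM values, a column for each library. Tools named in the submitters' processing notes, with no role given, are edgeR 2.2.6, HTSeq 0.5.4p5 and TopHat2 2.0.13. The genome build, the strand setting and how reads shared by similar genes were counted are not given in the sources used here.

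Of 29548 rows, 12 held an unreadable value and were left out. The members and the lists were chosen with earlier results of these data known. For each gene, a length and 6 library divisors were sought that turn its RPKM values into whole reads, which worked for 23585 of 24536 genes above 0 (96.1%, with a chance fit of at most 0.01) and for all 32 members. The recovered reads came to 93.8% to 104% of the divisors, so these are not plain sums of reads. Counting errors cover counting alone, since PCR reads without molecular identifiers are not independent molecules, whereas limma's intervals carry the spread between libraries.

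Values were taken as log2(RPKM + 1) and fitted in R 4.3.3 by limma 3.58.1 (lmFit, eBayes with trend), 3 seedless against 3 seeded libraries, two-sided, with Benjamini-Hochberg adjustment over 18749 genes. Single values per library were compared by exact permutation in scipy 1.17.1 under Python 3.11.15. Tables and figures were made with pandas 2.3.3, numpy 2.4.6 and matplotlib 3.10.9. Genes named are the 10 highest means, members past the threshold, the 5 narrowest intervals among members that held, 3 on each side of the mean of 800 RPKM and neighbouring members; others are said to be chosen later or are extremes of a stated quantity. Alternatives changed the pseudocount (0.1), the filter (none, or 5 RPKM), the scaling, the variance model, library weights, the replicate block, the threshold (0.01), the mean required (400 and 1600 RPKM) and the libraries. Added after seeing the data were limma's voom on recovered reads, the share of recovered reads, leaving out the shortest gene model and the share of members that reach the mean in both classes.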

Additional observations from a re-analysis of the deposited data

How the results depend on the processing

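The lower share of summed RPKM in seedless libraries kept its direction in every alternative run, with differences between -1.64 and -0.769 percentage points. The count of members that passed (2) was 1 with equal summed RPKM, against 12.0% of all genes. It also came to 1 with equal summed RPKM of the other genes (11.9% of all genes), no filter (7.83%) and quantile normalization (11.2%). It was 5 (15.6%) with library weights, against 19.2% of all genes, and with limma's voom on recovered reads, against 9.43%. At a limma adjusted p under 0.01 it was 0, against 350 of 18749 genes tested. The unadjusted p was under 0.05 in 7 members, against 31.6% of all genes tested. Leaving out 1 library gave 0 to 1, against 2.24% to 12.4% of all genes. With members at a mean of at least 400 RPKM, 13 of 129 (10.1%) passed, and at 1600 RPKM, 0 of 11, against 12.3% of all genes. Among members, calls of at least 2-fold numbered 2, against 8.95% of all genes. They came to 1 with equal summed RPKM, with equal summed RPKM of the other genes, with no filter and with quantile normalization. With 1 library left out there were 0 to 1 of them. Members within 2-fold (16) came to 0 with no filter, against 53.9% of all genes, and to 3 to 20 when 1 library was left out, against 41.7% to 59.1% of all genes. Calls over all genes (2303) came to 3603 with library weights, 350 at an adjusted p under 0.01 and 414 to 2229 with 1 library left out. Seedless libraries needed on average 221 more genes than seeded libraries for 50% of summed RPKM and 47 more for 25%, where the classes overlapped. Of all calls, 58.4% were higher in the seedless class, against 49.5% with equal medians, 50.4% with quantile normalization, 69.8% with equal summed RPKM and 68.5% with equal summed RPKM of the other genes. The causes were not tested. Of 544 recalculated fold changes of single members, 522 kept their direction and side of the threshold or turned without passing, 13 no longer passed and 9 newly passed, and 16 turned direction, in 8 members.

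With a replicate block 2 members passed, against 9.14% of all genes tested (1714 calls), and both changed at least 2-fold. Within 2-fold were 15 members, against 50.0% of all genes. Libraries of the same number deviated together only weakly, at correlations of 0.0662, 0.179 and 0.0979, each best with its own number. This is a hint from the data, as the labels give every library a different hybrid.

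With 3 plants a class, an exact test cannot go below p = 0.1. The fold changes of the 2 members that passed stayed between 1.79 and 2.44 and between -1.45 and -1.07 with 1 library left out, while calls were lost. Members' depth is ample, so the spread between libraries, more than counting, limits the precision. Values within a pair of neighbours depend on how shared reads were counted. The labels name no technical batch.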

Other observations

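Over the 6 libraries, 22 genes were among the 10 highest of at least 1 library, and 15 of them were members. Of the other 7, 5 entered through seedless library 1 alone. The highest gene of that library was VIT_17s0000g02610, with 2798, 63.9 and 913.7 RPKM in seedless libraries 1 to 3 and 485.4, 25.1 and 233.8 RPKM in seeded libraries 1 to 3. VIT_08s0058g01230 had 2298, 431 and 708 RPKM in the seedless libraries and 319, 233 and 376 RPKM in the seeded libraries. VIT_01s0011g03940 had 1932, 29.8 and 509 RPKM in the seedless libraries and 117, 18.1 and 83 RPKM in the seeded libraries. VIT_00s0125g00070 had 1923, 394.7 and 964 RPKM in the seedless libraries and 438.1, 278.2 and 404.4 RPKM in the seeded libraries. VIT_18s0072g00380 had 1909, 374 and 595.4 RPKM in the seedless libraries and 243.2, 218.8 and 223.3 RPKM in the seeded libraries. In this gene and in VIT_08s0058g01230 every seedless value lay above every seeded value, as in 19.0% of all genes tested. With all libraries none of the 5 passed the comparison of the classes (limma adjusted p between 0.0936 and 0.448). Without seedless library 1, VIT_18s0072g00380 passed, at a log2 fold change of 1.04 (adjusted p = 0.0355 by limma), and the other 4 did not. These genes were singled out after their values were seen, and their means of 448 to 753 RPKM keep them off the list.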
